A study of Zea mays with 4 samples.

Results

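The MADS box genes encode a family of transcription factors, and 20 probe sets for 19 of them, of 1108 genes that the array's annotation names, were measured in the ear internode of maize, the stem segment that bears the ear. A probe set was taken when its gene was named zap1 or silky1 (si1), or carried a name made of zmm, zag or mads and a number. For these probe sets the platform table gives a locus identifier only, so the names came from the synonyms of the RefSeq gene table. The 20 probe sets stand among 17621 without controls, of which 1452 were annotated with a single gene. The RefSeq table holds 32 genes whose names meet the rule, and the other 13 had no annotated probe set and are not analysed here.

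Ear internodes of the inbred line F271 were measured on 4 Affymetrix maize arrays, 2 for early silking (340 and 400 ng of RNA) and 2 for tassel emergence (290 and 440 ng). Both groups share the line, the tissue, a summer field that was irrigated against heat and drought, and the absence of a treatment, and all RNA was amplified and labelled with biotin. In a cross with line F288, studied for lignin content and wall degradability, F271 was the unfavourable parent. Whether the arrays of a stage stand for different plants is not given, so a p-value here covers the spread of these arrays alone, which may be technical. An internode holds vascular, ground and surface tissue in 1 extract, so fewer cells of a type and less RNA per cell cannot be told apart.

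MADS box factors bind DNA as dimers and assemble into larger complexes. In flowers, combinations of classes named A to E specify the organs: class B for stamens and the petal-like lodicules of grasses, class C for stamens and carpels, class D for ovules, and the SEPALLATA-like class E as partners of the rest. The AP1/FUL-like group acts at the change from leaf to flower production and, in grasses, is also active outside the flower, while the SVP-like group is known mainly from vegetative tissues.

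A gene was counted as present where its log2 value, made by the authors with GCRMA, was above 4 on both arrays of a stage. By this rule 7 of the 20 probe sets, 1 for each of 7 genes, were present, and all 7 were above 4 on all 4 arrays. The share of 35% stands beside 64.8% of the probe sets annotated with a single gene and 60.8% of all probe sets without controls. The other 13 probe sets, for 12 genes, were below 4 on every array. The lowest value among the present genes was 4.34, for zmm31, followed by 4.53, for zmm16, and the highest among the rest was 2.57, for the second probe set of zmm8. The subfamilies below were assigned from general knowledge after the values had been seen, so their counts are a description.

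**Figure D1:**
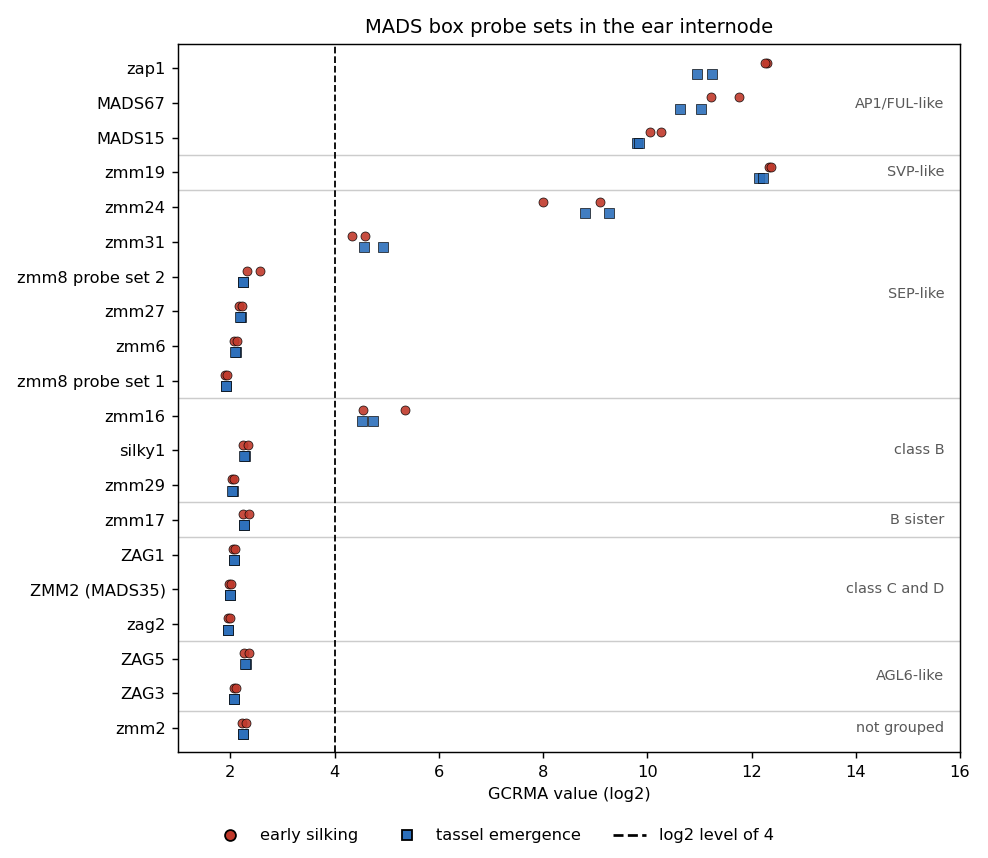
GCRMA values (log2) of the 20 MADS box probe sets on each array, with early silking as circles above tassel emergence as squares, grouped by subfamily; the dashed line is the level of 4. The 3 AP1/FUL-like genes, zmm19, zmm24, zmm31 and zmm16 lie above the line on all arrays, and the other 13 probe sets lie between 1.91 and 2.57.

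All 3 measured AP1/FUL-like genes were present: zap1 (LOC542257), the maize APETALA1-like gene, MADS15 (LOC542032, also m15) and MADS67 (LOC542045, also m28). Their values ran from 9.81 to 12.30 over the 4 arrays. The SVP-like gene zmm19 (LOC542033), the tunicate1 gene whose expression in the ear gives pod corn its leafy glumes, was present at 12.34 and 12.36 at early silking, against 12.15 and 12.23 at tassel emergence.

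Of 5 SEPALLATA-like genes, 2 were present. zmm24 (LOC542038) had values of 9.10 and 8.01 at early silking, against 8.81 and 9.27 at tassel emergence. zmm31 (LOC542040) had 4.58 and 4.34 at early silking, against 4.93 and 4.57 at tassel emergence. It was thus above 4 on each array, but never above 5. The other 3, zmm6, zmm8 and zmm27, were below 4 throughout, and the first and second probe sets of zmm8 gave the same answer.

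Of the 3 class B genes, 1 was present. This was zmm16 (LOC542019), the sterile tassel silky ear1 gene, a PISTILLATA-like class B gene, with values of 5.34 and 4.54 at early silking, against 4.53 and 4.73 at tassel emergence. Its probe set, like those of the other class B genes, has the suffix _a_at, used for probes shared by several transcripts of a gene. The other class B genes were below 4 on every array. For silky1, the APETALA3-like partner in class B, the values were 2.24 and 2.33 at early silking, against 2.28 and 2.27 at tassel emergence. The PISTILLATA-like gene zmm29 lay between 2.03 and 2.06, and zmm17, of the B sister group known from ovules, between 2.24 and 2.36.

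None of the class C and D genes reached the level on any array. ZAG1, an AGAMOUS-like class C gene, had 2.06 and 2.09 at early silking, against 2.07 and 2.06 at tassel emergence. The class C gene ZMM2 (LOC100037764, also MADS35) and zag2, a class D gene of the ovule, lay with it between 1.95 and 2.09. The AGL6-like genes ZAG3, which is the bearded ear1 gene, and ZAG5 lay between 2.06 and 2.36. A second gene to which the table gives the name zmm2 (LOC541764) was left without a subfamily and lay between 2.23 and 2.29.

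These low values lay at or near those of probes with no maize target. The 17 control probe sets for synthetic tags lay between 1.80 and 2.30 on the 4 arrays, and 8 of the 13 low MADS box probe sets were inside the range of these controls on every array. The other 5, the second probe set of zmm8, ZAG5, zmm17, silky1 and the zmm2 gene without a subfamily, left that range on at least 1 array. Below 4 a gene is not shown to be silent, since a transcript too rare for these probes reads the same.

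Between the stages, zap1 showed a 2.28-fold higher signal at early silking, and no MADS box probe set passed the threshold. The difference, early silking minus tassel emergence, was tested in limma over the 10782 probe sets that were above 4 on at least 2 arrays, with an adjusted p of 0.05 as the threshold. None of the 7 present MADS box probe sets passed, and neither did any other, so that the called share was 0% of all tested probe sets. At an unadjusted p under 0.05 there was 1 of the 7, zap1, beside 24.8% (2679) of all tested. The 13 low probe sets were not tested.

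zap1 had values of 12.30 and 12.26 at early silking, against 11.24 and 10.95 at tassel emergence. Both early silking arrays were above both tassel emergence arrays, and the stage means of 12.28 ± 0.029 at early silking and 11.09 ± 0.20 at tassel emergence (SD, n = 2 each) differed by 1.19 with an SE of 0.20. The 95% interval of this log2 change ran from 0.63 to 1.74, a fold of 1.55 to 3.35. Its unadjusted p was 0.00414 and its adjusted p 0.0987 (limma, 2-sided), above the threshold. At an adjusted p under 0.1 zap1 was the single MADS box gene, beside 4.27% of all tested probe sets. It was above 0.1 with quantile normalization (0.102), 1 common variance (0.144), a covariate for the 3' to 5' signal loss in control transcripts (0.108) and each array left out (0.137 to 0.438). With 2 arrays a stage, the smallest p that an exact permutation test allows is 0.333.

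**Figure D2:**
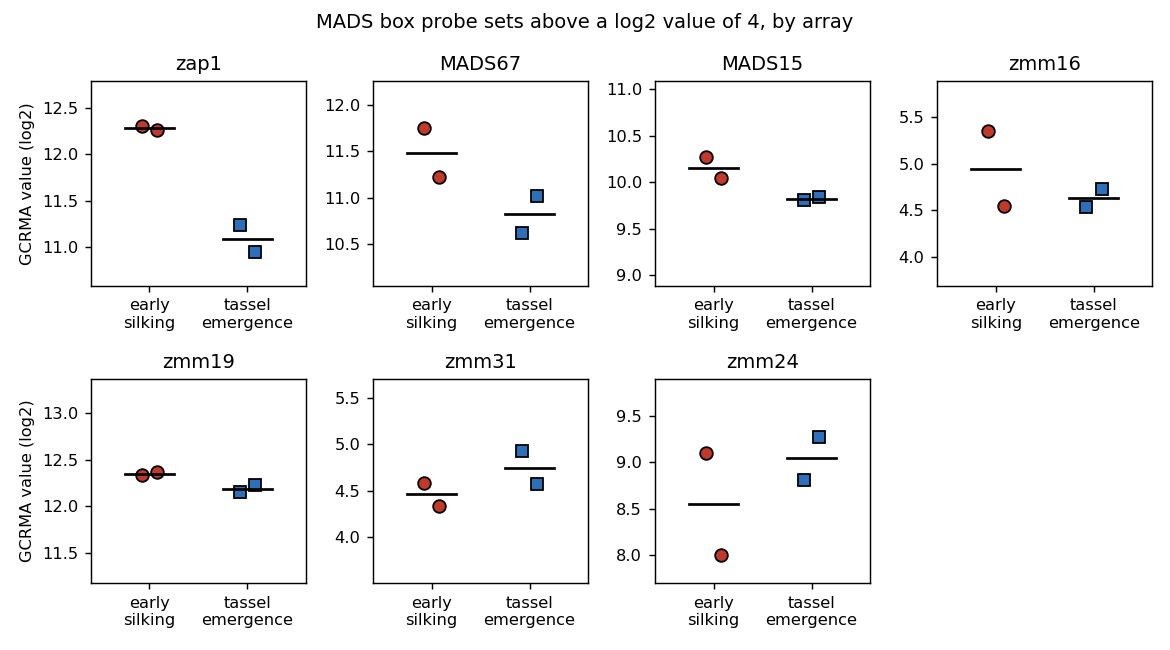
GCRMA values (log2) of the 7 present MADS box probe sets on each array, early silking left of tassel emergence, with a bar at the mean of each stage and axes that all span 2.2 log2 units. The stages do not overlap for zap1, MADS67, MADS15 and zmm19, and they overlap for zmm16, zmm31 and zmm24.

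The other AP1/FUL-like genes had changes of the same sign, neither past the threshold. MADS67 had values of 11.76 and 11.22 at early silking, against 10.62 and 11.03 at tassel emergence. The lower early silking array and the higher tassel emergence array were 11.22 and 11.03, so the stages were separate by little. Its log2 change was 0.66 with a 95% interval from -0.15 to 1.48 (limma, adjusted p = 0.256). MADS15 had 10.27 and 10.05 at early silking, against 9.81 and 9.84 at tassel emergence, again without overlap. Its change was 0.33 with an interval from -0.19 to 0.86 (limma, adjusted p = 0.336), so a fold of 1.81 in favour of early silking lies inside it.

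The change of zmm19 was 0.16 with an interval from -0.32 to 0.64 (limma, adjusted p = 0.594). Its stages did not overlap, though the gap between them was small beside that interval, which allows a fold between 0.801 and 1.56. Over the 7 genes, 4 had stages without overlap, all of them higher at early silking, beside 59.7% of all tested probe sets without overlap, of all tested 34.9% higher and 24.9% lower. The 7 changes had a median of 0.31, and that of all tested probe sets was 0.10.

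The SEPALLATA-like genes had overlapping stages. The change of zmm24 was -0.49 with an interval from -1.76 to 0.78 (limma, adjusted p = 0.542), and 0.060 without early silking replicate 2. Its early silking arrays differed from each other by 1.09, more than the stages did. The change of zmm31 was -0.29 with an interval from -0.93 to 0.35 (limma, adjusted p = 0.475). In the RefSeq table zmm31 and MADS15 are neighbours with no annotated gene between them, and their changes were -0.29 and 0.33, neither past the threshold. For zmm16 the change was 0.31 with an interval from -0.64 to 1.26 (limma, adjusted p = 0.602). Its early silking arrays differed by 0.80, and without replicate 1 of that stage the change was -0.090.

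**Figure D3:**
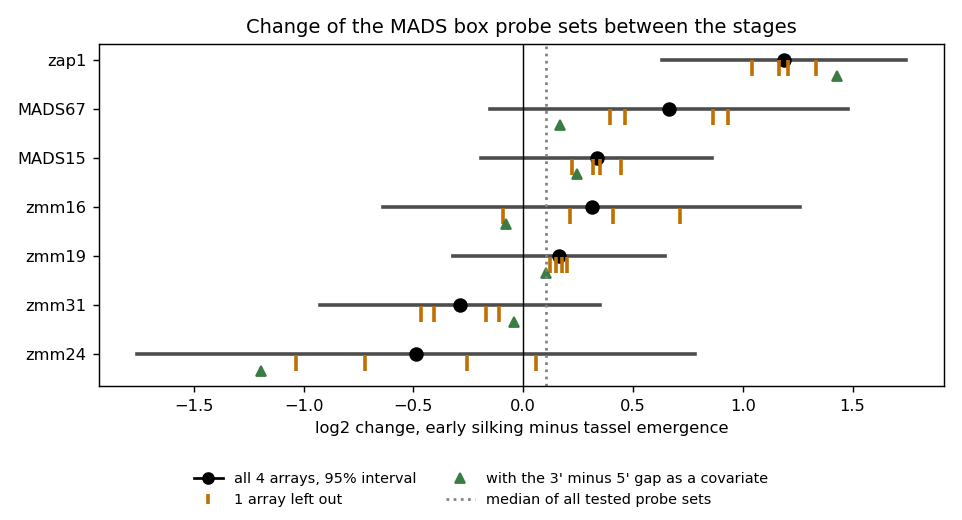
Log2 change of the 7 present MADS box probe sets, early silking minus tassel emergence: points with bars give the limma estimate and its 95% interval, orange ticks the estimates with 1 array left out, green triangles the estimate with the 3' minus 5' gap as a covariate, and the dotted line the median of all tested probe sets. The interval of zap1, from 0.63 to 1.74, lies above 0, and the other 6 intervals include it.

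The RNA differed between the stages in a further way. The 3' end of 5 control transcripts exceeded the 5' end by a mean log2 difference of 1.84 and 2.37 on the early silking arrays, against 4.57 and 2.88 on the tassel emergence arrays. This gap depends on RNA integrity and on amplification. Within tassel emergence, replicate 1, with the larger gap, minus replicate 2 was 0.29 for zap1, -0.40 for MADS67 and -0.0335 for MADS15. With the gap as a covariate, which leaves 1 residual degree of freedom per probe set, the change was 1.43 for zap1 (limma, adjusted p = 0.108), 0.17 for MADS67 and 0.24 for MADS15. The changes of zmm24 and zmm16 became -1.19 and -0.080 in that fit. Adjusted p-values of zap1 (limma) ran from 0.0729 to 0.438 over 13 alternatives, crossed replicate pairs aside.

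Other regulators of flowering, inflorescence form and meristems were measured by 41 probe sets for 39 genes, taken by name. Of these, 9 (22.0%) were present by the same rule, beside 64.8% of the probe sets annotated with a single gene. None of them passed the threshold for the change between stages, where 0% of all tested probe sets did. 5 had a positive and 4 a negative change, with a median of 0.096. Of all 10782 tested probe sets, 6193 had a positive and 4589 a negative change. The stages of 5 of the 9 did not overlap, beside 59.7% of all tested probe sets. Of these 5, kn1 and knox7 were higher at early silking, and GT1, an1 and lg3 were lower. The homeobox gene kn1, knotted1, which maintains meristems, had 11.41 and 11.42 at early silking, against 10.78 and 10.88 at tassel emergence. The stages of kn1 were separate, with a change of 0.58 and an adjusted p of 0.164 (limma). knox7, of the same family, had 8.89 and 8.97 at early silking, against 8.45 and 7.85 at tassel emergence, with an adjusted p of 0.198 (limma).

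lg3, a knotted-like gene, had 6.62 and 6.67 at early silking, against 6.73 and 7.05 at tassel emergence, and a change of -0.25. ids1, of the spikelet meristem, had 0.19, and fea2, a receptor-like protein of the ear meristem, had 0.27. For rld1, a leaf polarity gene, and ocl3, of the outer cell layer family, the changes were -0.045 and 0.096. an1, anther ear1, an ent-copalyl diphosphate synthase of gibberellin synthesis, had -0.89 with separate stages (limma, adjusted p = 0.264). The probe set annotated GT1 had 6.21 and 5.97 at early silking, against 8.13 and 7.45 at tassel emergence (limma, adjusted p = 0.107). The name GT1 is shared by several genes, and the list's Ct2 is a catalase by its other name cat2, so neither is taken here as a flowering gene, though the counts above include both. Genes of the list below 4 on all arrays included zfl1, a maize homologue of LEAFY that acts above the floral MADS box genes, the flowering time gene id1, the branching gene tb1 and the sex determination gene ts2.

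Marker genes were used to check the tissue. All 5 stem secondary wall markers (cesa10, cesa11, CesA12, bk2 and 4CL) were present, with values from 9.82 to 13.53. Of the markers of the ear and tassel primordium, 3 of 7 genes were present (kn1, fea2 and ids1), while bd1, zfl1, BA1 and ts2 were between 1.75 and 1.97. All 3 pollen profilins on the list were below 4. The summed level of the primordium list, as a log2 value, was 11.47 and 11.47 at early silking, against 10.87 and 10.94 at tassel emergence. kn1, given above, made up nearly all of that sum. The sum was higher at early silking, as zap1 was, and its part in the change of zap1 was not tested. ids1 and fea2, with values from 5.26 to 5.87 and from 4.48 to 5.37, had overlapping stages, and the 4 genes below the level did not exceed 1.97 on any array.

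**Figure D4:**
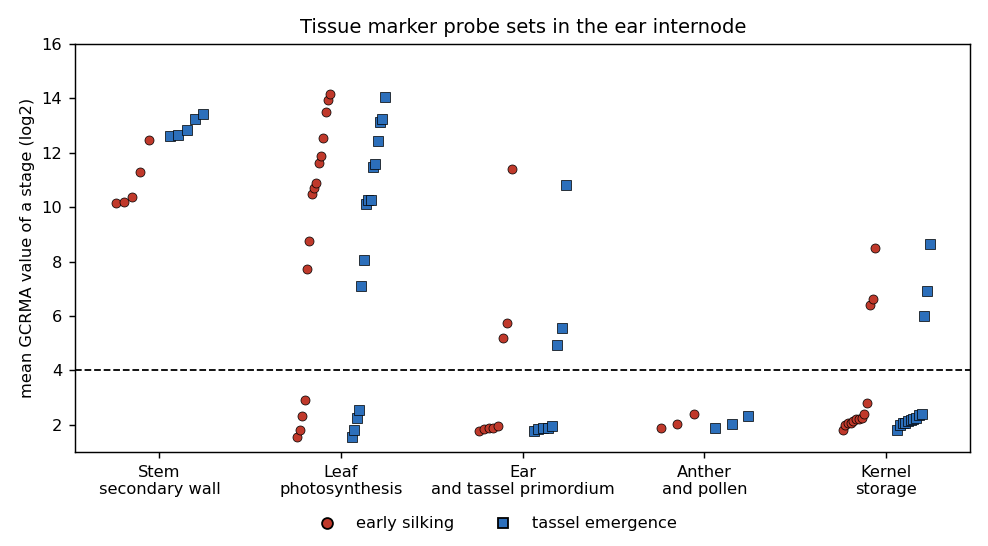
Mean GCRMA value (log2) of each marker probe set at early silking (circles, left) and tassel emergence (squares, right) for 5 marker lists; the dashed line is the level of 4. All 5 stem secondary wall markers lie above the line at both stages, as do 3 of 8 primordium probe sets, 11 of 15 leaf photosynthesis probe sets, 3 of 13 kernel probe sets and none of the 3 pollen probe sets. The kernel count includes the GLB1 that also carries the haemoglobin name Hb.

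Leaf photosynthesis markers were present for all 8 genes of the list, in 11 of its 15 probe sets. The rest were further probe sets of lhcb6 and Ppdk1. The summed log2 level of this list was 16.23 and 15.74 at early silking, against 15.38 and 15.94 at tassel emergence, and the stages overlapped. Of the 9 kernel storage genes 3 were present, namely bt2, gz27 in 1 of its 3 probe sets, and a GLB1 that also carries the haemoglobin name Hb. That GLB1 matched by a shared name and is not taken here as a kernel gene, though the counts and the sum include it. The glb1 that carries the name globulin-1 lay between 2.35 and 2.48. The summed kernel level was 9.23 and 9.25 at early silking, against 9.59 and 9.06 at tassel emergence. This GLB1 was the largest part of that sum on each array, with 8.37 and 8.67 at early silking, against 9.08 and 8.25 at tassel emergence. The sum thus mainly follows that probe set. The summed stem wall level was 13.65 and 13.41 at early silking, against 15.14 and 15.50 at tassel emergence. It was lower at early silking, where zap1 was higher, and a link between them was not tested.

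The genes whose profiles over the 4 arrays lay closest to each member were found by Euclidean distance, after each profile was centred on its mean, among 799 other named genes. For zap1 these were GLN6 at a distance of 0.20, the starch branching enzyme gene sbe1 at 0.20 and the ribosomal protein gene RPL19 at 0.20. GLN6 had values of 11.10 and 10.81 at early silking, against 9.97 and 9.72 at tassel emergence. Closest to MADS67 were hac108 (0.10), trm1 (0.17) and HP3 (0.17), and closest to MADS15 were SE1B (0.043), met4 (0.074) and LOC542519 (0.082). Closest to zmm19 were K2 (0.049), pdi7 (0.064) and ec2e (0.068), with log2 changes from 0.14 to 0.19. For zmm24 they were apr (0.21), pep7 (0.25) and TUBC (0.26), for zmm31 pep (0.11), ANT-G1 (0.11) and ohp2 (0.14), and for zmm16 GBSSIIa (0.059), dnp1 (0.17) and ccp2 (0.22). With 4 arrays such likeness is a description, and none of the 7 had another MADS box gene among its closest 3. With so few members beside 799 other named genes, that absence does not tell whether the members vary together.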

How the data were processed

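The table holds log2 values of probe sets that the authors made with GCRMA, a method that corrects background through probe sequence and then normalizes, per the submitters' processing notes. Its version and any further step are not given in the sources used here. That the values are on a log2 scale follows from their range, 1.36 to 15.29. Arrays have no depth, and their number limits the precision. Leaving out 113 of 17734 probe sets as controls, those above 4 on at least 2 of the 4 arrays were tested, 10782 in all. The stages were compared with limma 3.58.1 (R 4.3.3, lmFit, eBayes, 2-sided, Benjamini-Hochberg over all tested probe sets), with no term for the replicate number, and the fit was tested on simulated data.

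Names came from the platform annotation and, through gene identifiers, from RefSeq (Zm-B73-REFERENCE-NAM-5.0), whose coordinates served only to find neighbours. The annotation named 1 gene for 1452 probe sets, several for 1 and no gene for 16168, and RefSeq held 1060 of the 1108 genes. All members were named, with every present gene of the flowering list and, per member, the 3 nearest genes by profile, using the probe set with the highest mean per gene. The members and lists were chosen with earlier results of these data known. Alternatives were other filters, normalizations, variance models and levels, replicate and crossed blocks, the 3' minus 5' gap as a covariate, and each array left out. Array medians lay between 6.35 and 6.51. Arrays correlated at r = 0.967 within early silking, at 0.933 within tassel emergence and at 0.883 to 0.914 between stages, across probe sets, which are not independent.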

Additional observations from a re-analysis of the deposited data

How the results depend on the processing

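The count of present MADS box probe sets was 7 with a level of 3, with quantile normalization and with centred arrays, and 5 with a level of 5, which zmm16 exceeded on 1 array and zmm31 on none. No alternative at an adjusted p of 0.05 called a MADS box probe set (limma), and at 0.1 the call was 1, zap1, beside 460 of all tested probe sets. Over all probe sets the count of 0 became 1045 with 1 common variance, which takes no account of differences in spread between probe sets, and 357 with crossed pairs as a block. In the flowering list the common variance gave 1, GT1. Without GT1 and Ct2, a choice made after the data were seen, that list still had 0. Leaving out each array in turn gave 0 in all 3 counts. The deviations of arrays with the same replicate number correlated at -0.42 over the tested probe sets, and the labels do not tell whether the numbers pair the stages. With the replicate block 0 probe sets passed and zap1 had an adjusted p of 0.272 (limma).

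The change of zap1 kept its sign in 13 alternatives, crossed pairs aside, and ran from 1.04 to 1.43, and from 1.04 to 1.33 with 1 array left out. MADS67, MADS15, zmm19 and zmm31 kept theirs as well, from 0.17 to 0.93, 0.22 to 0.45, 0.10 to 0.23 and -0.47 to -0.044. For zmm31 and zmm16 there were 12 alternatives, since the filter of a mean above 5 left them out. The sign of zmm24 turned without early silking replicate 2, where the change was 0.060 (range with 1 array left out -1.03 to 0.060). The sign of zmm16 turned without early silking replicate 1 (-0.090, range -0.090 to 0.71) and in the fit that holds the gap (-0.080). The cause was not tested.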

Other observations

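Of the 13 low MADS box probe sets, 12 had their highest value on early silking replicate 2, as did 17 of the 17 tag controls. The low probe sets ranged over the 4 arrays by 0.032 to 0.33, and the tag controls by 0.027 to 0.056. The widest range was that of the second zmm8 probe set, with values of 2.57 and 2.31 at early silking, against 2.25 and 2.24 at tassel emergence, while the first zmm8 probe set had 1.91 and 1.94 at early silking, against 1.92 and 1.92 at tassel emergence. With no filter on low values, the second zmm8 probe set had a log2 change of 0.20 (limma, adjusted p = 0.528), and the other 12 low probe sets had changes from 0.0046 to 0.040.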
